A study of Mus musculus with 24 samples.

Results

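Retinas of 10-day-old C57Bl/6 mouse pups that had spent 72 hours in hyperoxia were compared with retinas of pups of the same age kept in room air. The members are the 6 arrays whose titles give day 10, 3 for each condition, of 24 arrays in the whole series. The other 18 arrays are 3 each for room air and hyperoxia at postnatal days 7, 8 and 12, after 12, 24 and 120 hours of exposure, so that age and length of exposure change together across the series and cannot be told apart. Every array measured total RNA of retina with oligonucleotide probe sets. The labels name the strain as C57Bl/6 for every group and give no oxygen level, no sex and no number of animals per array. Nor do they say that replicates came from separate animals, and the p-values therefore rest on a spread between arrays that could be technical in part or whole.

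In the mouse the retinal vessels grow after birth, spreading from the optic nerve over the inner surface and then sprouting into the deeper layers. Growth follows a gradient of low oxygen: neurons and glia short of oxygen stabilise hypoxia-inducible factor (HIF), a transcription factor that turns on the growth factor Vegfa together with glycolytic and mitochondrial genes. Breathing high oxygen at this age removes that signal and halts or prunes young vessels, which is the first phase of the mouse model of retinopathy of prematurity.

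Levels are given as log2 of the normalized intensity, with a floor at 7.1, and differences as log2 hyperoxia minus room air with the standard error of a limma fit over all 24 arrays. Of 22626 probe sets that are not controls, 15838 passed a filter on dim signal and were tested. At a Benjamini-Hochberg adjusted p under 0.05, 9 probe sets (0.0568% of those tested) were lower in hyperoxia and 1 (0.00631%) was higher, which is 10 genes by name. The lower genes were 3 HIF targets (Pfkl, Bnip3 and Fam162a), 4 genes of the vessel wall and its cells (Tm4sf1, Mgp, Igfbp7 and Gng11), the replication gene Mcm5 and Ostf1. The higher one was a probe set of Uqcc2. At an unadjusted p under 0.05 there were 1731 probe sets (10.9%), of which 991 were lower and 740 higher. Under the deposited scaling, without quantile normalization, 756 were lower and 1550 higher, so the share that was lower changed from 57.3% to 32.8% and the direction of weak differences depends on the scaling. With 1 probe set a gene, the 3 hyperoxia arrays lay entirely below the 3 room air arrays for 1256 of 9266 genes (13.6%) and entirely above them for 889 (9.59%). Groups that do not overlap are thus common, and most genes named here were picked for low p-values or for such groups.

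**Figure D1:**
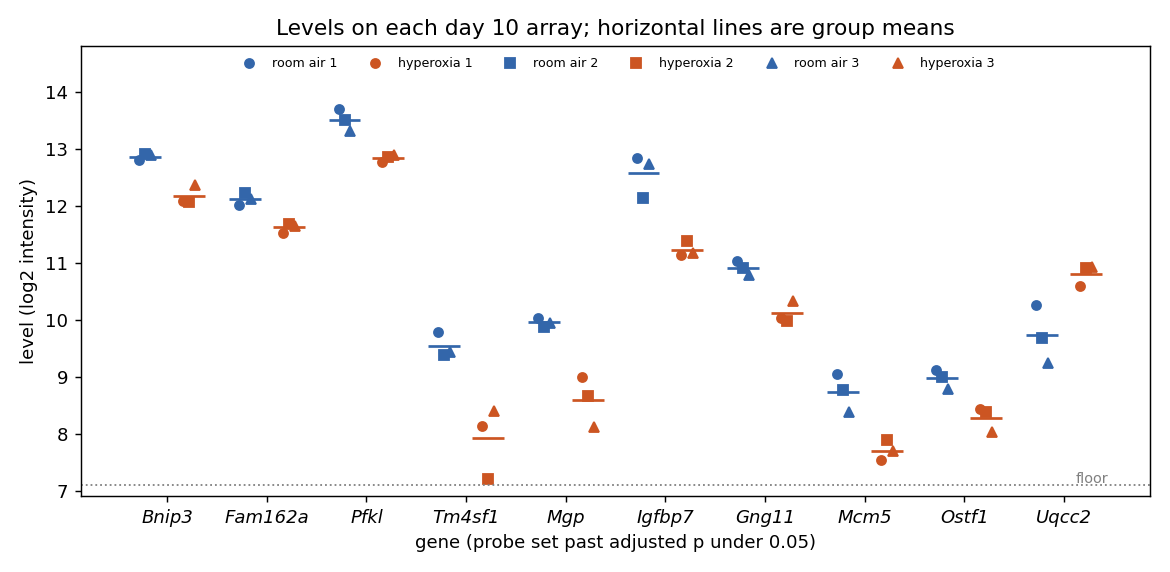
Levels of the 10 genes that passed the test, as log2 intensity on each of the 6 day 10 arrays; symbols mark the replicate number, colours the condition, horizontal lines the group means and the dotted line the floor. In 9 genes the 3 hyperoxia arrays lie under the 3 room air arrays, and in Uqcc2 they lie above them.

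These calls rest on 3 arrays a group and single arrays decided many of them. With 1 array left out, the number of lower calls was 0 without hyperoxia 1, 3 without hyperoxia 2, 2 without hyperoxia 3, 0 without room air 1, 2 without room air 2 and 6 without room air 3. The number of higher calls was 0, 0, 0, 1, 1 and 1 in the same order. Tm4sf1 passed in 4 of these 6 fits, Mcm5 in 2, Igfbp7, Ostf1, Pfkl and Uqcc2 in 1 each, and Mgp, Gng11, Bnip3 and Fam162a in 0. The differences of all 10 genes kept their direction in each of the 6 fits. With only the 6 day 10 arrays in the fit, 1 lower and 2 higher probe sets passed, with 0 of the 10 among them.

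Room air 1 stood apart from the others. It had the highest value of the 6 arrays for 24.1% of the probe sets tested, against 13.6% to 17.8% for the other 5. On the first principal component of the 6 arrays (40.8% of the variance) it lay at 34.9, room air 2 at 16.3, room air 3 at -7.4 and the hyperoxia arrays between -19.5 and -5.7. Room air 3 correlated more closely with hyperoxia 3 (Pearson r over probe sets 0.9787) than with room air 1 (0.9616). The median deposited intensity ran from 570.1 to 593.8 on the room air arrays and from 625.7 to 654.3 on the hyperoxia arrays. The 3′ over 5′ ratio of the actin control probe sets was between 1.06 and 1.17 on the 6 arrays, and that of the Gapdh ones between 0.776 and 0.893, with the 2 groups overlapping in both.

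The arrays carried the markers of neural retina. Means in room air and in hyperoxia were 14.54 and 14.33 for Gnat1, the rod transducin, 15.33 and 15.29 for Sag, the rod arrestin, and 12.68 and 12.81 for Rlbp1, a retinoid-binding protein of Muller glia. Of the skeletal muscle markers, Tnnt3 was at the floor on each of the 6 arrays, while Acta1 had means of 8.78 in room air and 8.28 in hyperoxia and Ckm 8.35 and 8.55. Of the cornea markers, Kera was at 7.1 to 7.2 and Krt12 had means of 7.66 and 7.75. Lens RNA varied from array to array: the mean level of 18 lens genes was 10.62, 9.82 and 12.12 in room air and 11.18, 12.9 and 10.47 in hyperoxia. With the lens and pigment levels of each array as covariates, 12 lower and 1 higher probe sets passed, and the 10 genes were among them.

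Pfkl, the liver-type phosphofructokinase of glycolysis, fell after 72 hours of hyperoxia. Its levels in room air were 13.69, 13.5 and 13.31, and in hyperoxia 12.77, 12.86 and 12.88. The hyperoxia arrays were nearly equal and lay under the lowest room air array. The difference was -0.66 ± 0.11 (SE, 3 arrays a group; limma adjusted p = 0.0334), which is 63.3% of the room air level. A further Pfkl probe set gave -0.55 ± 0.13 (adjusted p = 0.146), again with groups that did not overlap.

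Bnip3, a mitochondrial receptor of mitophagy, fell by 0.69 ± 0.12 on the log2 scale (limma adjusted p = 0.0412). Its levels were 12.8, 12.9 and 12.88 in room air and 12.08, 12.07 and 12.36 in hyperoxia, so all 3 hyperoxia arrays lay under the room air arrays. Fam162a, another mitochondrial protein and HIF target, fell by 0.5 ± 0.09 (adjusted p = 0.0412), from 12.01, 12.22 and 12.12 to 11.52, 11.68 and 11.64. Spread within its groups was small, with SDs of 0.1 in room air and 0.08 in hyperoxia. Its fall, to 70.7% of the room air level, was the smallest of the 10 called differences.

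HIF binds the core RCGTG, that is ACGTG or GCGTG. The 250 bases before the RefSeq start of these 3 genes are shown because the genes share this regulator; they run 5′ to 3′ along the gene's strand (mouse build GRCm38.p6), with each ACGTG or GCGTG on either strand in capitals, so CACGT and CACGC are capitals too, and the 2 words of a CACGTG overlap.
Bnip3, chr7:138909507-138909756, minus strand: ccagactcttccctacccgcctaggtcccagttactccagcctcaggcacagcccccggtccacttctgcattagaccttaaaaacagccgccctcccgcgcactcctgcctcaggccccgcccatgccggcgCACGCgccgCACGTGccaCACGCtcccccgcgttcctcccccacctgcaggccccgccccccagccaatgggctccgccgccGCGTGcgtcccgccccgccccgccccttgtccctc
Fam162a, chr16:36071562-36071811, minus strand: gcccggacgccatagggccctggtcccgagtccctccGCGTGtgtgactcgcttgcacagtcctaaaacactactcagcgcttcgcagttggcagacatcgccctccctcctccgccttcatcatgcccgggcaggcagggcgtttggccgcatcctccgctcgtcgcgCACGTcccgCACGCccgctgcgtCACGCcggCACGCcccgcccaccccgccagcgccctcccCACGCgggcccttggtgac
Pfkl, chr10:78009808-78010057, minus strand: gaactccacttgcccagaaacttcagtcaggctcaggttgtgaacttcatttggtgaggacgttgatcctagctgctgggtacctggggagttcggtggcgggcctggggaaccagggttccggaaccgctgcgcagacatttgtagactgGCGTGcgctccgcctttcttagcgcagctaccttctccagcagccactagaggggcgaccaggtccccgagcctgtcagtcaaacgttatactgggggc
Bnip3 held 5 matches between positions -117 and -35 from the start, Fam162a 6 and Pfkl 1. Of 32851 mouse promoters of the same length, 38.6% held at least 1 match and 2.58% at least 4. Among the 55 promoters of 38 HIF targets tested, 81.8% held at least 1. Of the other called genes in the promoter table, Igfbp7 and Ostf1 held 2 each, Uqcc2 1, and Tm4sf1 and Mcm5 0. A match is a run of letters and not a binding site shown by these data.

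Of 54 HIF targets listed, 48 had a probe set of their own and 45 were tested. Beside the 3 that fell, 0 rose. At an unadjusted p under 0.05, 15 of the 45 were lower and 0 higher, against 7.1% of 9266 genes lower and 4.2% higher. The median difference was -0.21, against -0.02 over all genes, and 38 of the 45 were negative. Lower values were thus spread over the list, while few members passed the adjusted threshold.

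Vegfa, the growth factor of vessel sprouting, lay at 11.04, 11.06 and 11.14 in room air and 10.72, 10.45 and 10.54 in hyperoxia. Its groups did not overlap, but its difference of -0.51 ± 0.13 did not pass (limma adjusted p = 0.153). Among the glycolytic enzymes, Pfkp, the platelet-type phosphofructokinase, differed by -0.69 ± 0.14 (adjusted p = 0.0774), from 11.73, 11.56 and 11.49 to 10.86, 11.06 and 10.78. Aldoc, an aldolase, differed by -0.47 ± 0.12 (adjusted p = 0.193) and Tpi1, triosephosphate isomerase, by -0.41 ± 0.12 (adjusted p = 0.206), both with groups apart. Another Tpi1 probe set, which passed at days 7 and 8, differed by -0.49 ± 0.1 at day 10 (limma adjusted p = 0.0926). The list of glycolysis and lactate genes, which shares members with the HIF list, had 1 of 19 called (Pfkl) and a median of -0.21. At an unadjusted p under 0.05, 6 (31.6%) were lower and 0 higher, against 7.1% and 4.2% of all genes.

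Other HIF targets with low p-values serve matrix, oxygen sensing and signalling. P4ha1, a collagen prolyl hydroxylase, stood at -0.6 ± 0.13 (limma adjusted p = 0.0926), with 10.8, 10.64 and 10.58 in room air and 9.86, 10.29 and 10.07 in hyperoxia. Egln1, the hydroxylase that marks HIF for destruction when oxygen is present, stood at -0.4 ± 0.11 (adjusted p = 0.206). Bhlhe40, a transcriptional repressor, had the lowest difference of the list at -1.46 ± 0.41 (adjusted p = 0.206). Its groups overlapped, since hyperoxia 1 at 8.98 lay just above room air 2 at 8.97 while hyperoxia 2 and 3 were at 7.1 and 7.31. Slc2a1, the glucose transporter, was at -0.21 ± 0.2, and Hmox1, heme oxygenase, was the highest member at 0.45 ± 0.61, both with overlapping groups. Both were chosen after their values were seen.

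**Figure D2:**
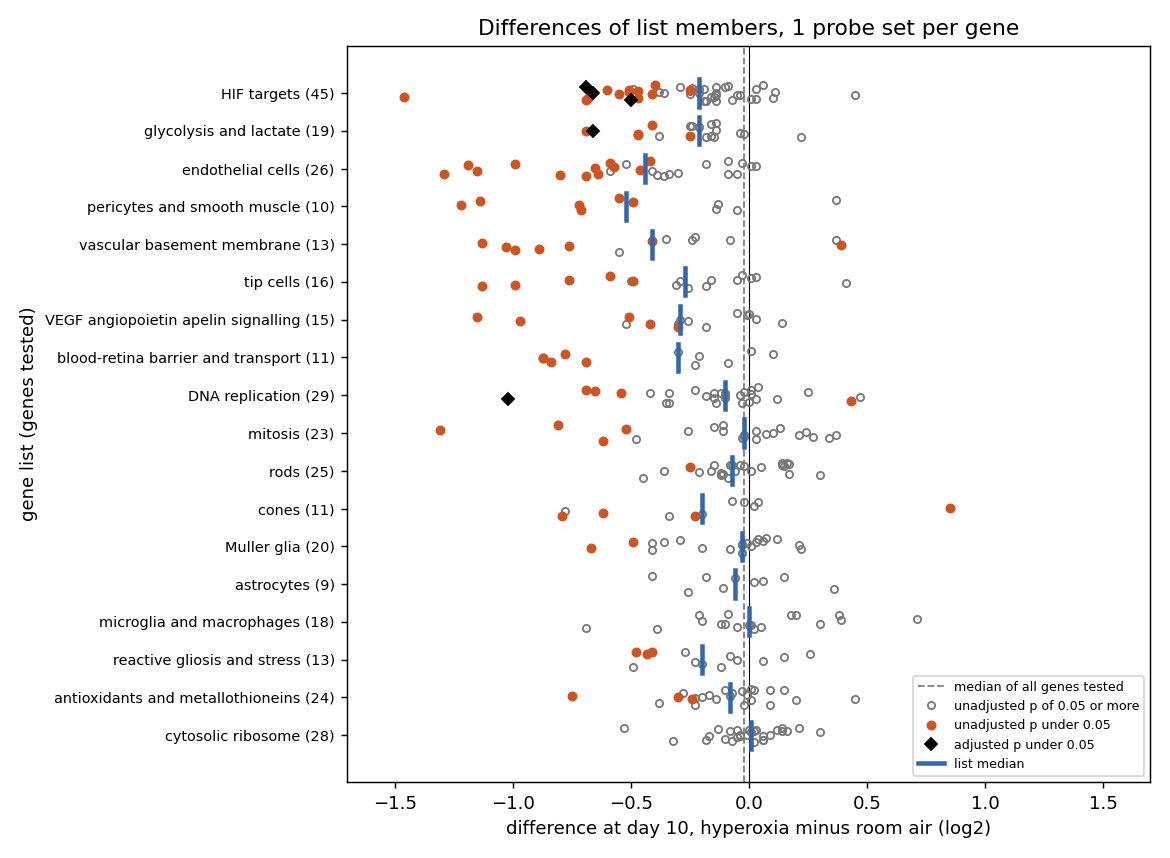
Differences at day 10 (log2 hyperoxia minus room air) of single genes, 1 point a gene, in 18 gene lists with the number of genes tested in parentheses; the blue bar is the list median and the dashed line the median of all genes (-0.02). The 6 vessel lists plotted, the HIF targets and the glycolysis list have medians from -0.21 to -0.52. The medians of cones and of reactive gliosis and stress are both -0.2, and those of the remaining lists plotted lie between -0.1 and 0.01.

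The 3 largest called falls were those of vessel genes. Tm4sf1, a membrane protein abundant on endothelial cells, had levels of 9.79, 9.38 and 9.43 in room air and 8.14, 7.21 and 8.4 in hyperoxia. The hyperoxia arrays spread over more than 1 log2 unit, and hyperoxia 2 was close to the floor. The fall was 1.62 ± 0.24 on the log2 scale (limma adjusted p = 0.0236), to 32.6% of the room air level. Without a floor the difference was again -1.62 ± 0.24 (adjusted p = 0.0251), and with a floor raised to the 40th percentile it was -0.92 (adjusted p = 0.0094).

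Mgp, matrix Gla protein, a secreted inhibitor of calcification made in the vessel wall, fell by 1.36 ± 0.24 (limma adjusted p = 0.0412). Its room air levels were 10.03, 9.87 and 9.94 and its hyperoxia levels 8.99, 8.66 and 8.12. The room air arrays were close together, and the spread lay in hyperoxia. Igfbp7, a secreted protein of the IGF-binding family found around vessels, fell by 1.34 ± 0.24 (adjusted p = 0.0412), from 12.83, 12.14 and 12.72 to 11.13, 11.38 and 11.16. Here the room air arrays spread more than the hyperoxia arrays, with SDs of 0.37 and 0.13. Gng11, a G protein gamma subunit, fell by 0.8 ± 0.15 (adjusted p = 0.0475), from 11.02, 10.91 and 10.78 to 10.03, 9.98 and 10.32. These 4 genes stand in a list of vessel surface and wall genes that was drawn up with earlier results of these arrays known, so the list's count of 4 of 17 called is not independent evidence. The other gene lists were also written with earlier results known, so the same limit holds for their counts.

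Of 35 endothelial genes listed, 26 were tested, and 0 passed the adjusted threshold. At an unadjusted p under 0.05, 12 (46.2%) were lower and 0 higher, against 7.1% and 4.2% of all genes. The differences of 24 of 26 were negative, and the median was -0.44. Cd93, a surface lectin of endothelial cells, lay at 10.72, 10.39 and 10.04 in room air and 9.24, 9.22 and 8.81 in hyperoxia, a difference of -1.29 ± 0.28 (limma adjusted p = 0.0926). Pecam1, a junction protein that defines endothelium, lay at 9.25, 8.82 and 8.61 against 8.1, 7.83 and 7.17 (-1.19 ± 0.26, adjusted p = 0.105). Eng, endoglin, a coreceptor for BMP ligands, lay at 10.56, 10.06 and 9.55 against 9.13, 9.08 and 9 (-0.99 ± 0.22, adjusted p = 0.109). In all 3 the groups did not overlap, as for 13.6% of all genes, and room air 1 was the highest array.

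Other endothelial genes gave a mixed picture. Aplnr, the apelin receptor, differed by -1.15 ± 0.3 (limma adjusted p = 0.177) and Cldn5, the claudin of the blood-retina barrier, by -0.69 ± 0.19 (adjusted p = 0.206), both with groups apart. Kdr, the main VEGF receptor, had a mean of 11.98 in room air and 11.94 in hyperoxia (-0.05 ± 0.16). Cdh5, VE-cadherin, had means of 9.02 and 8.68 with groups that touched at 8.81. Vwf and Icam2, endothelial genes too dim for the filter, passed when no filter was used, together with genes such as Ess2 and the muscle gene Ankrd2. Vwf stood at -1.27 ± 0.17 (limma adjusted p = 0.00646) and Icam2 at -1.19 ± 0.2 (adjusted p = 0.0306). Both were chosen after their values were seen. Probe sets this dim lie near the floor, and the part of the floor in their SEs and p-values was not tested.

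Pericytes wrap the endothelium and steady new vessels. Of 18 pericyte and smooth muscle genes listed, 10 were tested. At an unadjusted p under 0.05, 6 (60%) were lower and 0 higher, against 7.1% and 4.2% of all genes, and the median was -0.52. Without room air 1, or without room air 2, 8 of the 10 passed the filter on dim signal. The rest passed it only with both arrays in. Of the 8, 25% and 37.5% were lower in these fits, against 4.2% and 4.39% of all genes, so the 60% depends on those arrays. Rgs5, a regulator of G protein signalling that marks pericytes, lay at 13, 12.71 and 12.53 in room air and 12.06, 11.9 and 12.17 in hyperoxia (-0.71 ± 0.15, limma adjusted p = 0.0848). Pdgfrb, the receptor through which endothelium recruits pericytes, lay at 9.17, 8.85 and 8.58 against 7.68, 7.52 and 7.98 (-1.14 ± 0.27, adjusted p = 0.133). Kcnj8, a potassium channel subunit of pericytes, differed by -1.22 ± 0.41 (adjusted p = 0.303). None of the 10 passed the adjusted threshold.

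The vascular basement membrane is the sheet of collagen IV, laminin and nidogen that both cell types share. Of 13 genes tested, 6 (46.2%) were lower and 1 (7.69%) was higher at an unadjusted p under 0.05, against 7.1% and 4.2% of all genes, with a median of -0.41. Col4a1 lay at 12.74, 12 and 12.56 in room air and 11.16, 11.33 and 11.43 in hyperoxia (-1.13 ± 0.26, limma adjusted p = 0.126). Its partner chain Col4a2 lay at 11.92, 11.18 and 11.71 against 10.4, 10.66 and 10.78 (-0.99 ± 0.23, adjusted p = 0.126). Lamb1, a laminin beta chain, differed by -1.03 ± 0.21 (adjusted p = 0.0774) and Nid2, a nidogen, by -0.76 ± 0.26 (adjusted p = 0.315). Of the 13, 11 were negative; the positive members were Hspg2, perlecan, at 0.39 ± 0.18 (adjusted p = 0.444) and the laminin chain Lama5 at 0.37 ± 0.34, the second named after its value was seen.

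The other vessel lists ran from such shares down to near the background of 7.1% lower and 4.2% higher, with 0 adjusted calls. Of 11 genes of the blood-retina barrier and its transport, 5 (45.5%) were lower and 0 higher at an unadjusted p under 0.05, and of 10 genes of endothelial junctions 4 (40%) and 0. The lowest in p was Slc7a5, the large amino acid transporter, at 12.2, 11.83 and 11.82 in room air against 10.77, 11.55 and 10.92 (-0.87 ± 0.2, limma adjusted p = 0.127). Of 16 genes of tip cells, the leading cells of a sprout, 5 were lower and 0 higher, with a median of -0.27. Of 15 genes of VEGF, angiopoietin and apelin signalling, 5 were lower and 0 higher, with a median of -0.29. Angptl4, a secreted angiopoietin-like protein induced by low oxygen, differed by -0.97 ± 0.29 (adjusted p = 0.232), with hyperoxia 1 lowest at 7.36 and hyperoxia 2, at 8.73, just under the lowest room air array at 8.76. Of 15 endothelial transcription factors 2 (13.3%) were lower and 1 (6.67%) higher, with a median of -0.24. Norrin and Frizzled-4 signalling had 3 of 9 lower and 0 higher with a median of -0.1, endogenous vessel inhibitors 1 of 9 and 0 with -0.1, and collagens outside the basement membrane list 2 of 12 and 0 with -0.09.

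**Figure D3:**
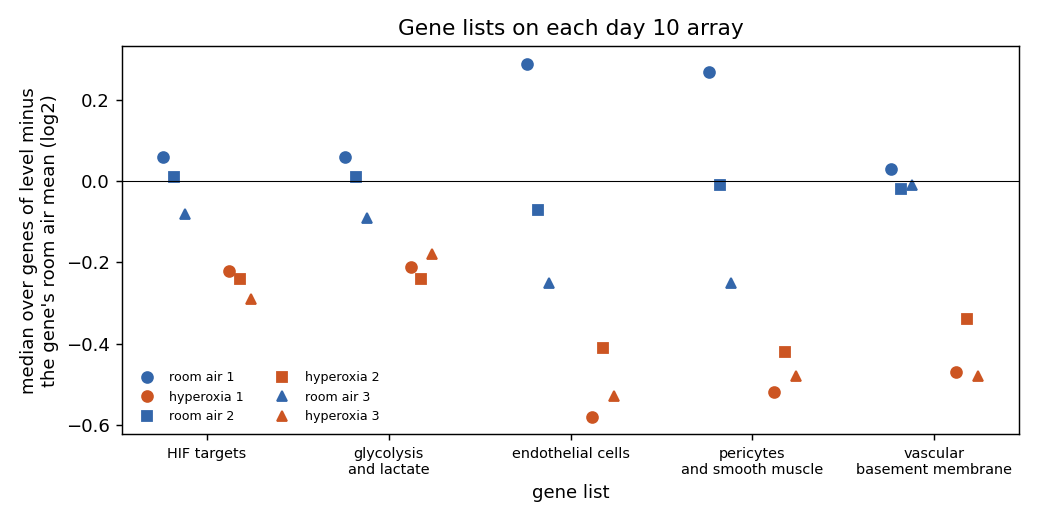
Position of each day 10 array on 5 gene lists, as the median over genes of the array's level minus the gene's room air mean (log2). In each list the 3 hyperoxia arrays lie under the 3 room air arrays; room air 1 is the highest array in each of them and stands well above the other room air arrays for endothelial cells (0.29) and pericytes (0.27).

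Room air 1 stood out in the vessel lists, and the counts moved with the array left out. It was the highest of the 6 arrays for 22 of 26 endothelial genes, with an array median of 0.29 against -0.07 and -0.25 on the other room air arrays and -0.58 to -0.41 on the hyperoxia arrays. By the same unadjusted threshold, 10 of 26 endothelial genes were lower when room air 1 was left out (median -0.33), 10 without room air 2 (median -0.43), 16 without room air 3 (median -0.57) and 11 without any 1 hyperoxia array. The pericyte list changed most: without room air 1, 8 of its genes passed the filter, 2 were lower and the median was -0.17. Without room air 2, 3 of 8 pericyte genes were lower. The basement membrane list kept a median of -0.38 without room air 1, with 4 of 13 lower, the HIF targets -0.19 with 14 of 45, and the glycolysis list -0.15 with 6 of 19. The share of all genes that was lower was 4.2% without room air 1, 4.39% without room air 2 and 8.06% without room air 3. It was 4.62%, 6.02% and 6.06% without hyperoxia 1, 2 and 3. Under the deposited scaling, 9 of 26 endothelial, 4 of 10 pericyte, 4 of 13 basement membrane and 14 of 45 HIF list genes were lower. The share of all genes was then 5.68%.

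Markers of blood and of pigmented tissue were set beside the vessel genes. Alas2, the heme synthesis enzyme of red cell precursors, lay at 9.82, 9.41 and 8.69 in room air and 8.49, 7.26 and 8.34 in hyperoxia, a difference of -1.28 ± 0.39 (limma adjusted p = 0.236). The mean level of 7 erythroid genes was 8.1, 7.94 and 7.75 in room air and 7.77, 7.45 and 7.7 in hyperoxia, with groups that overlapped, and Hba-a1 was near the floor with means of 7.4 and 7.38. Pigment genes were highest on room air 1, at a mean of 10.14 against 9.53 to 9.77 on the other 5 arrays. The part of blood or of pigmented tissue in the vessel differences was not tested. In bulk RNA, fewer cells of a type and less RNA per cell cannot be told apart.

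Mcm5, a subunit of the helicase that opens DNA for replication, fell by 1.02 ± 0.16 (limma adjusted p = 0.0334). It lay at 9.04, 8.76 and 8.38 in room air and 7.53, 7.89 and 7.69 in hyperoxia, with the hyperoxia arrays near the floor. The difference was again -1.02 without a floor (adjusted p = 0.0324), and -0.19 with a floor raised to the 40th percentile, where it did not pass (adjusted p = 0.452). Its RefSeq promoter is shown because E2F factors, which switch on replication genes, bind words of the form TTTCCCGC, TTTCGCGC, TTTGCCGC or TTTGGCGC. In the 250 bases before the start (GRCm38.p6, 5′ to 3′ along the plus strand) the 2 overlapping matches on either strand are in capitals.
Mcm5, chr8:75109259-75109508, plus strand: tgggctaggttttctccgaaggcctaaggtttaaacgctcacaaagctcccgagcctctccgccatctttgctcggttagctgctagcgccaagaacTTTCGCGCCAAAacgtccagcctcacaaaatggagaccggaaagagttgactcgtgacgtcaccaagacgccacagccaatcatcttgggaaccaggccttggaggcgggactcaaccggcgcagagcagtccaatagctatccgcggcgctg
At least 1 of these words stood in 1.86% of 32851 promoters of this length.

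Of 29 replication genes tested, Mcm5 was the 1 called. At an unadjusted p under 0.05, 4 (13.8%), Mcm5 included, were lower and 1 (3.45%) higher, against 7.1% and 4.2% of all genes, and the median was -0.1. Lig1, the DNA ligase of replication, lay at 10.21, 10.54 and 10.37 in room air against 9.7, 9.75 and 9.6 (-0.69 ± 0.19, limma adjusted p = 0.206). Mcm2 and Mcm7, partners of Mcm5 in the same ring and chosen here for that reason, were at 0.47 ± 0.37 and 0.01 ± 0.14. Of 23 mitosis genes, 4 (17.4%) were lower and 0 higher, with a median of -0.02. Ccnb2, a mitotic cyclin, lay at 8.29, 8.02 and 8.06 against 7.1, 7.45 and 7.4 (-0.81 ± 0.16, adjusted p = 0.0574). Its kinase partner Cdk1 lay at 8.97, 9.01 and 8.4 against 7.16, 7.1 and 8.2 (-1.31 ± 0.27, adjusted p = 0.0859). Both came within a log2 unit of the floor in hyperoxia except Cdk1 on hyperoxia 3. The median of the mitosis list was 0.2 under the deposited scaling, so its sign depends on the scaling.

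Ostf1, an SH3-domain protein first known from osteoclasts, fell by 0.69 ± 0.13 (limma adjusted p = 0.0412). Its levels were 9.12, 9 and 8.79 in room air and 8.43, 8.38 and 8.02 in hyperoxia. The groups were apart, with both spreads under 0.25 (SDs 0.17 and 0.23). Under the deposited scaling 4 of the 10 calls were lost: Ostf1 (-0.5 ± 0.13, adjusted p = 0.13), Mcm5 (-0.81 ± 0.18, adjusted p = 0.0892), Mgp (-1.26 ± 0.24, adjusted p = 0.0554) and Gng11 (-0.78 ± 0.15, adjusted p = 0.0515).

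The single higher call was not shared by the gene's other probe set. Uqcc2, which helps to assemble complex III of the respiratory chain, had a probe set at 10.26, 9.68 and 9.24 in room air and 10.58, 10.9 and 10.92 in hyperoxia, a difference of 1.07 ± 0.19 (limma adjusted p = 0.0412). The other Uqcc2 probe set was brighter, at 12.52, 12.74 and 12.62 against 12.23, 12.43 and 12.47, and differed by -0.25 ± 0.15 (adjusted p = 0.54), with its groups apart in the opposite direction. No direction can therefore be given for the gene. Of 60 respiratory chain genes, 2 (3.33%) were lower and 1 (1.67%) higher at an unadjusted p under 0.05, with a median of -0.07. Both shares lay under those of all genes, 7.1% lower and 4.2% higher.

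Among the other large positive differences, the other probe sets of Tram1 and Zfp346 had the opposite sign. Those of Actb, Ssb, Pom121 and Sel1l had the same sign at a smaller size. Actb, cytoplasmic actin, had a probe set at 9.62, 9.58 and 9.51 in room air against 10.75, 11.16 and 10.38 (1.19 ± 0.23, limma adjusted p = 0.0574), while its brighter probe set differed by 0.11 ± 0.11. The first passed under the deposited scaling (1.27 ± 0.24, adjusted p = 0.0476). Ssb, an RNA-binding protein, stood at 1.27 ± 0.33 (adjusted p = 0.171) by 1 probe set and at 0.16, 0.16 and 0.05 by 3 others. Tram1, a protein of the translocation channel, stood at 1.05 ± 0.23 (adjusted p = 0.108) and at -0.3 ± 0.13 by its other probe set. For Pom121, a nuclear pore protein, the probe sets stood at 1.08 and 0.41 ± 0.2 (adjusted p = 0.452 for the second), and for Sel1l, of protein quality control in the endoplasmic reticulum, at 0.97 and between 0.19 and 0.31. Tcl1b4, Cysrt1, Lcn8, Ascl3 and Mis12 had no other tested probe set. Tcl1b4 lay at 7.94, 7.85 and 7.69 in room air against 9.17, 9.14 and 8.95 (1.26 ± 0.26, adjusted p = 0.0774), and it passed under the deposited scaling (1.54 ± 0.27, adjusted p = 0.0306), with the day 10 arrays alone (adjusted p = 0.0494), with the replicate block (adjusted p = 0.0334) and with 1 probe set per gene (adjusted p = 0.048). Over all probe sets with an unadjusted p under 0.01 and groups apart, 155 genes were higher; 95 of them had another probe set, and in 9 (9.47%) another one was higher too at an unadjusted p under 0.05. Of 263 lower genes, 107 had another probe set, and in 19 (17.8%) another one was lower too. At least 1 other probe set had the opposite sign in 46 of the 95 genes and in 43 of the 107. Over all genes, with 1 probe set each, 4.2% were higher and 7.1% lower at that p. The 95 genes had 181 other probe sets and the 107 had 177, so these shares are not matched to 9.47% and 17.8%.

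**Figure D4:**
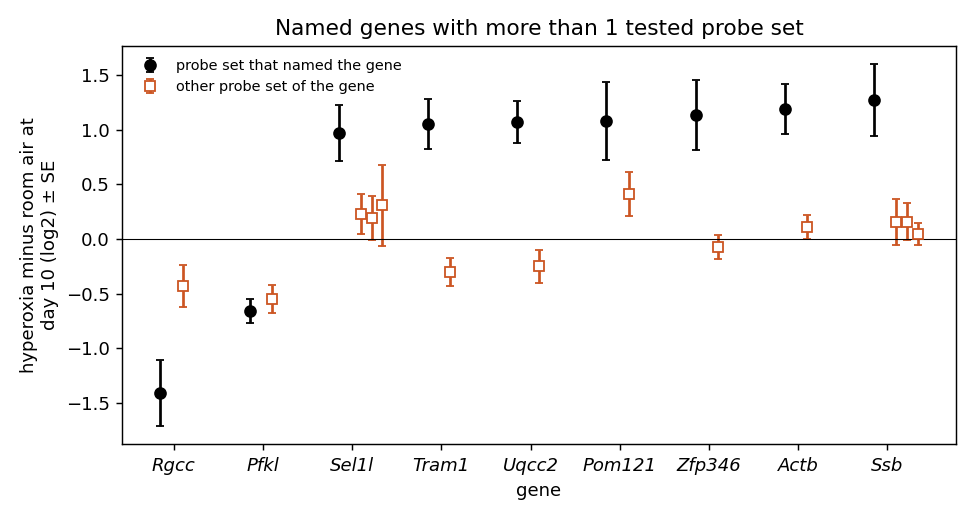
Differences at day 10 (log2 hyperoxia minus room air, with SE) for the named genes that have more than 1 tested probe set; filled circles are the probe set that named the gene and open squares its others. For Pfkl both probe sets lie close together at -0.66 and -0.55, and the others of Rgcc (-0.43), Pom121 (0.41) and Sel1l (0.19 to 0.31) share the sign at a smaller size. For Uqcc2, Tram1, Zfp346, Actb and Ssb the others lie between -0.3 and 0.16.

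Among the 12 largest negative differences, Gm13889 had the lowest adjusted p of those that did not pass. It lay at 10.48, 10.61 and 10.36 in room air and 8.58, 9.15 and 8.58 in hyperoxia, a difference of -1.71 ± 0.32 (limma adjusted p = 0.0518), and passed under the deposited scaling (-1.64 ± 0.29, adjusted p = 0.0348). Rgcc, a regulator of the cell cycle, lay at 8.84, 9.06 and 8.9 against 7.44, 7.53 and 7.6 (-1.41 ± 0.3, adjusted p = 0.0926), and its other probe set differed by -0.43 ± 0.19. Oas1a, an antiviral enzyme, and Pim1, a survival kinase, were at the floor on the 3 hyperoxia arrays, against 8.29 to 9.24 and 7.98 to 8.85 in room air. Their differences of -1.65 ± 0.48 (adjusted p = 0.213) and -1.44 ± 0.43 (adjusted p = 0.232) are therefore set in part by the floor. Fzd6, a Wnt receptor, spread from 9 to 11.03 within room air (-1.41 ± 0.33, adjusted p = 0.128).

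In the lists of neurons and glia 0 genes passed the adjusted threshold. Of 25 rod genes, 1 (4%) was lower and 0 higher at an unadjusted p under 0.05, against 7.1% lower and 4.2% higher over all genes, with a median of -0.07. Of 15 bipolar cell genes 1 was lower and 0 higher, and of 12 amacrine cell genes 0 in either direction. Of 7 horizontal cell genes 0 were lower and 1 higher, namely Prox1, a homeobox factor that lymphatic endothelium also uses, at 0.53 ± 0.15 (limma adjusted p = 0.215). Of 15 ganglion cell genes 2 (13.3%) were lower, Sncg at -0.35 and Thy1 at -0.32, and 2 (13.3%) higher, Rbpms at 0.45 and Nefh at 0.43. Among 20 Muller glia genes 2 were lower and 0 higher, with a median of -0.03; the lowest in p was Spc25, a kinetochore protein by function, at -0.67 ± 0.19 (limma adjusted p = 0.206). Astrocyte genes (9) and microglia genes (18) had 0 in either direction, with medians of -0.06 and 0. In the cytosolic ribosome, 0 of 28 genes reached that p in either direction, and the median was 0.01.

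Of 11 cone genes, 3 (27.3%) were lower and 1 (9.09%) higher at an unadjusted p under 0.05, against 7.1% and 4.2% of all genes, with a median of -0.2, and 0 passed the adjusted threshold. Arr3, the cone arrestin, lay at 11.07, 10.99 and 10.8 in room air and 10.55, 9.83 and 10.11 in hyperoxia (-0.79 ± 0.29, limma adjusted p = 0.342). The middle-wavelength opsin Opn1mw had means of 11.57 and 10.96 (-0.62 ± 0.28, adjusted p = 0.438), while the short-wavelength opsin Opn1sw had means of 13.48 and 13.52. Thrb, the thyroid hormone receptor that guides opsin choice, lay at 9.08, 8.96 and 9.37 against 10.21, 9.42 and 10.34 (0.85 ± 0.3, adjusted p = 0.318). For Arr3 and Thrb the groups did not overlap.

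The lists of antioxidants, glutathione transferases and gliosis held 0 called genes. Of 24 antioxidant and metallothionein genes, 3 (12.5%) were lower and 0 higher at an unadjusted p under 0.05, against 7.1% and 4.2% of all genes, with a median of -0.08. Of 14 glutathione transferases, 1 was lower and 1 higher. The higher one, Gstm3, lay at 9.41, 8.95 and 8.6 in room air and 9.78, 9.88 and 9.65 in hyperoxia (0.79 ± 0.19, limma adjusted p = 0.136). Of 13 genes of reactive gliosis and stress, 3 (23.1%) were lower and 0 higher, with a median of -0.2, and Gfap, the classic marker of gliosis, had means of 9.48 and 9.64. In the list of BCL2 family genes and caspases 1 of 21 was called, the mitophagy gene Bnip3.

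The called genes were then set beside their differences at the other ages. Pfkl stood at -0.71, -0.85, -0.66 and -0.11 at days 7, 8, 10 and 12, and passed the test at days 7, 8 and 10. Bnip3 stood at -0.74, -1.04, -0.69 and -0.05, and passed at the same 3 ages. Vegfa, called at days 7 and 8, stood at -0.88, -1.04, -0.51 and 0.04. Fam162a stood at -0.42, -0.34, -0.5 and -0.21 and passed at day 10. For Bnip3 the room air mean lay between 12.58 and 12.88 at the 4 ages, and the hyperoxia mean was 11.84, 11.73, 12.17 and 12.83.

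**Figure D5:**
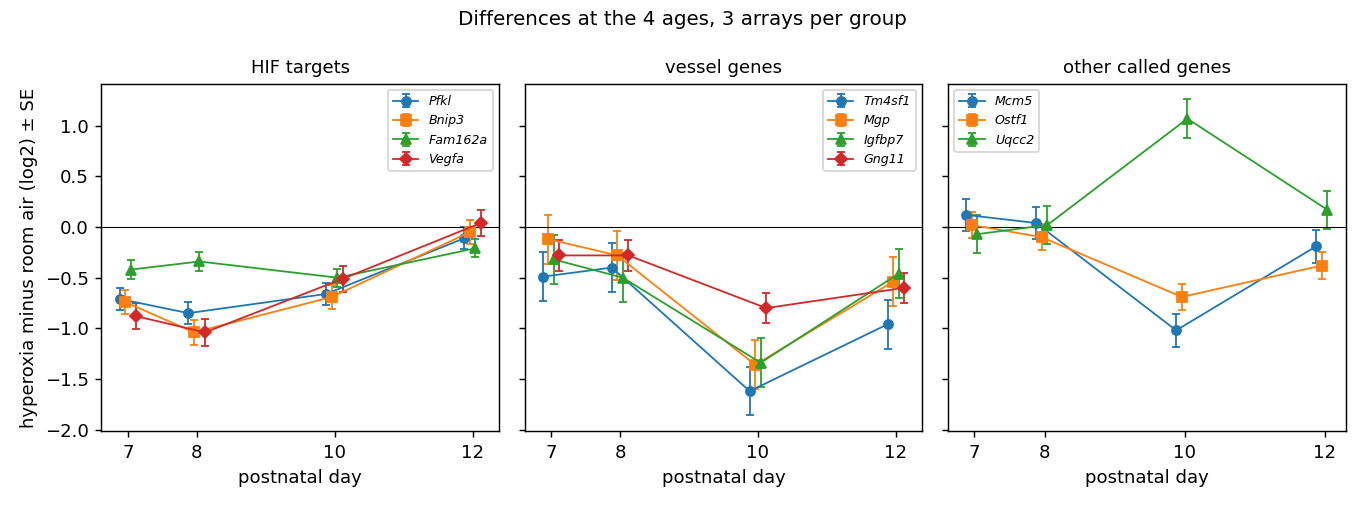
Differences between hyperoxia and room air (log2, with SE, 3 arrays a group) at postnatal days 7, 8, 10 and 12 for the called genes and Vegfa. The HIF targets lie between -1.04 and -0.34 at days 7 to 10 and nearer 0 at day 12. The vessel genes, Mcm5, Ostf1 and the Uqcc2 probe set lie farthest from 0 at day 10. All genes shown but Vegfa were picked for passing at day 10, which favours a larger difference there.

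The 4 vessel genes lay farthest from 0 at day 10. They were picked for passing the test at that age, which favours a peak there. At days 7, 8, 10 and 12 the endothelial list had medians of -0.2, -0.33, -0.44 and -0.36. The pericyte list had -0.12, -0.23, -0.52 and -0.29, and the basement membrane list -0.24, -0.2, -0.41 and -0.15. Without room air 1 the day 10 medians of these lists, in the same order, were -0.33, -0.17 and -0.38. The pericyte median then covered 8 genes, so its size at day 10 depends on that array. Tm4sf1 stood at -0.49, -0.4, -1.62 and -0.96 at days 7, 8, 10 and 12, Mgp at -0.12, -0.28, -1.36 and -0.54, Igfbp7 at -0.32, -0.5, -1.34 and -0.46, and Gng11 at -0.28, -0.28, -0.8 and -0.6. In room air the mean of Igfbp7 was 11.77, 11.66, 12.57 and 12.45 over the 4 ages, and in hyperoxia 11.45, 11.17, 11.22 and 12. The gap at day 10 thus came with a higher room air level than at days 7 and 8, and a hyperoxia level near that of day 8. Tm4sf1 went from 8.95 and 9.07 to 9.53 and 9.85 in room air, and from 8.46 and 8.68 to 7.92 and 8.89 in hyperoxia.

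Mcm5 stood at 0.12, 0.04, -1.02 and -0.19. Its room air means were 8.93, 8.87, 8.73 and 7.95, and its hyperoxia means 9.06, 8.91, 7.7 and 7.76, so the hyperoxia level at day 10 lay close to both levels at day 12. Ostf1 stood at 0.02, -0.1, -0.69 and -0.38. The Uqcc2 probe set stood at -0.07, 0.02, 1.07 and 0.17, with the lowest of its 8 group means, 9.73, in room air at day 10.

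No gene's difference at day 10 was shown to be particular to that age. The differences between the day 10 effect and that at day 7, 8 or 12 were tested for all 15838 probe sets, and 0 passed in each (0%), with lowest limma adjusted p-values of 0.193, 0.59 and 0.415. At an unadjusted p under 0.05 there were 1456, 1108 and 367, where 792 are expected without any change. The count against day 12 thus lay under that number. For Mcm5 the day 10 effect was 1.15 ± 0.23 below that at day 7 (unadjusted p = 7.63e-05 in the limma fit, adjusted p = 0.325). For Bnip3 it was 0.05 ± 0.17 above that at day 7 and -0.64 ± 0.17 from that at day 12 (adjusted p = 0.939 and 1). The lowest p-values belonged to Tyw1 against day 7 (-0.99 ± 0.17), Ssb against day 8 (2.32 ± 0.46) and Prss44 against day 12 (-1.21 ± 0.22). The difference in lens RNA between hyperoxia and room air also varied, with list medians of -0.34, -3.09, 0.65 and 1 at days 7, 8, 10 and 12. Lens levels varied within groups too: the mean of the lens genes was 7.67, 10.74 and 13.5 on the room air arrays of day 12. The part of lens RNA in the comparisons between ages was not tested.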

How the data were processed

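For each array the authors deposited linear intensity values, 1 for every probe set. Their software is not given in the sources used here. With 2% of values trimmed at each end, the array means of the deposited intensity values lay between 1500.35 and 1500.4, so a common scaling had been applied. These intensities were quantile normalized over 24 arrays, raised to a floor at the 20th percentile (intensity 136.8) and taken to log2. Control probe sets (64) were left out, as were probe sets with a mean under the 30th percentile. Group means were contrasted in 1 limma fit (version 3.58.1, R 4.3.3) over 8 groups, with 16 residual and 3.54 prior degrees of freedom, and p-values were adjusted by Benjamini-Hochberg over 15838 probe sets. Precision is limited by the 3 arrays a group.

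Genes were named through the platform annotation: 20380 probe sets had 1 symbol, 691 several and 1555 none. Lists use the brightest probe set of a gene, 9266 genes in all, and were described by counts with no set test. The comparison, the 47 lists and the naming rule were chosen with earlier results of these data known. The rule named the called genes, the 12 largest differences each way with unadjusted p under 0.01 and groups apart, up to 6 members of a list with the lowest p, and defining markers. Other genes are marked as chosen after their values were seen or by role. List counts without single arrays and under the deposited scaling were chosen after seeing the data. The method was checked on simulated data with independent noise. Those data held no effect shared by the genes of an array, so the check does not cover an array that stands apart. Same-numbered arrays did not all deviate together at day 10 (correlations of -0.1 to 0.16), so no pairing was used. Promoters came from RefSeq (GRCm38.p6), with 8 of 10 called genes present. Plots used matplotlib 3.10.9 (Python 3.11.15).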

Additional observations from a re-analysis of the deposited data

How the results depend on the processing

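The 10 called genes kept their direction under every alternative in which their probe set was tested; their calls were less steady than their signs. Counts of lower and higher probe sets were 9 and 1 in the reported fit. Leaving out 1 array gave 0 to 6 lower and 0 to 1 higher, with 589 to 1120 lower and 502 to 955 higher at an unadjusted p under 0.05. The deposited scaling gave 4 higher and 1550 higher at unadjusted p. No filter gave 17 lower, and 1 difference of differences each for days 7, 8 and 12; the 50th percentile filter gave 3 higher, and the floor at the 40th percentile 15 lower and 2 higher. Only the 6 arrays gave 1 lower, 2 higher and 1117 higher at unadjusted p. The robust prior gave 3 higher, and no moderation 4 lower and 0 higher (692 higher at an unadjusted p under 0.05, limma). One probe set per gene gave 14 lower, 2 higher and 405 higher at unadjusted p. The lens and pigment covariates gave 1 difference of differences for day 7. Array quality weights, with 4.69 for room air 2 against 0.37 to 1.81 for the others, gave 1104 lower and 847 higher (2569 and 2237 at unadjusted p), and 31 and 2 differences of differences for days 7 and 8. The replicate block gave 29 lower and 5 higher, the 10 genes among them. Deviations of same-numbered day 10 arrays from their group means correlated at -0.1 to 0.16. With 3 arrays a group these correlations cannot show whether the numbers pair the arrays. The cause of these changes was not tested. Over named genes and alternatives, 1825 values kept their side of the threshold, 123 passed it newly and 75 lost it; 597 list medians moved by less than the array spread and 74 by more. Values near the floor understate differences.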
